A study of Mus musculus with 4 samples.

Results

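Long CpG clusters are the longest runs of closely spaced CpG positions that reduced representation bisulfite sequencing (RRBS) read in this series of 4 mouse libraries. A position is 1 cytosine of a CpG on 1 strand, and a cluster is a run of autosomal positions, each with at least 5 calls in the iPSC, iPSC-DA neuron and mdDA neuron libraries and each less than 100 bp from its neighbour. Of 17133 clusters of at least 10 positions, 2135 (12.5%) held 60 or more positions, and they carried 184971 of the 540677 positions in clusters (34.2%). Depth and spacing alone chose them, with no methylation value.

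The 4 libraries stood for 1 condition each. The iPSCs were Pitx3 Gfp/+ induced pluripotent stem cells, made by retroviral reprogramming of embryonic fibroblasts. The iPSC-DA neurons were Pitx3 Gfp/+ dopaminergic neurons differentiated from iPSCs on a stromal feeder layer and sorted for GFP. The mdDA neurons were GFP-sorted midbrain dopaminergic neurons from Pitx3 Gfp/+ embryos at E14.5. The fourth library held NESTIN-GFP precursors, called precursors from here on, from a Nestin Gfp/+ reporter line, which the labels call neurons and the study's methods call precursors, so that stage and reporter line cannot be told apart for it. Which iPSC clone gave each library is not given in the sources used here, both differentiated populations express the GFP of their own reporter, and no cell type markers can be checked in DNA libraries of this kind.

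With 1 library per condition there was no replicate error. Every interval is a 95% Wilson interval and every p-value compares 2 libraries, not the conditions. Both cover counting error only, and since calls of 1 read are linked and PCR copies are not independent molecules, both are too narrow.

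CpG islands are stretches of DNA that kept a high density of CpG because they stay free of methylation in most cells, and many of them hold the promoters of genes. Methylated cytosines in vertebrate genomes sit mostly outside these islands, and a gene whose island promoter carries dense methylation is usually not transcribed. De novo methylation is laid down by DNMT3A and DNMT3B, and bisulfite sequencing reads 5-methylcytosine and 5-hydroxymethylcytosine alike. In cell populations, fewer methylated cells and fewer methylated copies per cell cannot be told apart in a methylation level.

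Promoters of 6 genes inside long clusters are printed here because they show the base composition behind the results and because the 4 that gained methylation and the 2 that did not look alike at this scale. Each is the RefSeq sequence from 250 bases before to 50 bases after a listed start of the gene, 5′ to 3′ along the gene. That start need not be the gene's main start. Capitals mark each CpG that had calls in a long cluster. The promoter coordinates are in GRCm38.p6. All cluster positions below are those of the deposited files, whose chromosome lengths fit NCBIM37 (mm9). The builds were not converted into each other.
Fgf18, a secreted growth factor (chr11:33147351-33147650, minus strand), Kcnc1, a voltage-gated potassium channel (chr7:46396218-46396517, plus strand), Adgrg6, an adhesion G protein-coupled receptor (chr10:14544987-14545286, minus strand), and Pou4f1, a transcription factor of sensory neurons (chr14:104467950-104468249, minus strand), lay in clusters that gained methylation in iPSC-DA neurons.
Fgf18: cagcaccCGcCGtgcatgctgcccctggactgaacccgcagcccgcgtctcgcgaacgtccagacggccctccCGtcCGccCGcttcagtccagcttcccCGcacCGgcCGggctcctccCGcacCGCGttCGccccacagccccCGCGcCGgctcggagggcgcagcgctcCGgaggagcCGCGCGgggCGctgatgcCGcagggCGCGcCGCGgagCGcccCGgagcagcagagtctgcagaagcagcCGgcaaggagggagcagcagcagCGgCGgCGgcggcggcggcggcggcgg
Kcnc1: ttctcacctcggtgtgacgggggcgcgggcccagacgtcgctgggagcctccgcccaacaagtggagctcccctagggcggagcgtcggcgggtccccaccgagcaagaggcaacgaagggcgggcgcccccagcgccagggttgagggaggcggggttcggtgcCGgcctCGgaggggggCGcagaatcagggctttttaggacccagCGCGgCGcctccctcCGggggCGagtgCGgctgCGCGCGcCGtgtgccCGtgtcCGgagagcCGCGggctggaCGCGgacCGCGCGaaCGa
Adgrg6: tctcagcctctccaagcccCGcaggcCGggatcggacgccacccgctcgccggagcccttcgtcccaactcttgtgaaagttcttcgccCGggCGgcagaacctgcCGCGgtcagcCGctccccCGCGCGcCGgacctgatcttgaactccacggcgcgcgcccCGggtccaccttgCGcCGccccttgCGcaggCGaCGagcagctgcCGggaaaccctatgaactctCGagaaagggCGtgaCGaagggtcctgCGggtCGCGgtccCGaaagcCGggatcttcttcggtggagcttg
Pou4f1: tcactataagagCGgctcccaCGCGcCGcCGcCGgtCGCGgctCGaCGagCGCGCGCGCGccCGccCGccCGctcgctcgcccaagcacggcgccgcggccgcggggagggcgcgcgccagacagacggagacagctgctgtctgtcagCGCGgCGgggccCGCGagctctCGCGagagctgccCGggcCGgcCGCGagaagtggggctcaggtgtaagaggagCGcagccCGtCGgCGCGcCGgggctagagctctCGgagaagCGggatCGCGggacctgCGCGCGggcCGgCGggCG
Nr4a2, the nuclear receptor NURR1 that midbrain dopaminergic neurons need (chr2:57123954-57124253, minus strand), and Srsf4, a splicing factor (chr4:131873810-131874109, plus strand), lay in clusters that did not.
Nr4a2: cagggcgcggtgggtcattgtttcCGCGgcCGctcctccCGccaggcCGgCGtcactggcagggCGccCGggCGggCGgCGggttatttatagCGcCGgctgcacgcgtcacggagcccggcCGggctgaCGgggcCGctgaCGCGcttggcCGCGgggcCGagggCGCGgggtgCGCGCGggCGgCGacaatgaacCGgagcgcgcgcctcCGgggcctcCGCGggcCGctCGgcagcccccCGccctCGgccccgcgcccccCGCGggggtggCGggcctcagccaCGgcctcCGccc
Srsf4: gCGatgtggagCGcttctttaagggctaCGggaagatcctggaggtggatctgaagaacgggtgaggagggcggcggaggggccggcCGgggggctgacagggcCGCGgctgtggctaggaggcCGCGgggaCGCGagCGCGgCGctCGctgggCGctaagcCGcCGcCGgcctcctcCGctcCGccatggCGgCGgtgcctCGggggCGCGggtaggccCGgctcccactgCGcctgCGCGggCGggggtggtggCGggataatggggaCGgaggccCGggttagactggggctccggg
The 300 bases held 47 CpGs at Fgf18, 41 at Kcnc1, 38 at Adgrg6 and 57 at Pou4f1, against 52 at Nr4a2 and 38 at Srsf4. CpG number therefore did not order these 6 promoters by what happened to them.

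The members had a median of 78 positions (quartiles 67 and 97) and reached 333. Their median length was 635 bp (range 181 to 1871 bp), with a median of 12.9 positions per 100 bp against 10.4 over all clusters. Each of the 19 autosomes held between 55 and 181 of them. The median member rested on 7261 calls in the iPSC library, 8130 in the iPSC-DA library and 6946 in the mdDA library. The NESTIN-GFP precursor library was shallower, with 1169 calls for the median member and at least 5 calls at 73.4% of the members' positions, so a level there was taken only over such positions, in the 2127 members with 20 or more of them.

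In 3 of the 4 libraries nearly all long clusters had low methylation levels. The level, defined as methylated calls over all calls, had a median over members of 3.87% in iPSCs (quartiles 3.39% and 4.50%), 4.67% in precursors (2.27% and 9.09%) and 4.64% in mdDA neurons (4.07% and 5.35%). A level under 20% was found for 2134 of 2135 members in iPSCs, 2123 in mdDA neurons and 2037 of 2127 in precursors. In iPSC-DA neurons the median was 5.39%, but the upper quartile stood at 27.7%. Levels in that library fell into a low and an intermediate range: 1441 members lay under 10%, 94 between 10% and 20%, 410 between 20% and 40%, 181 between 40% and 60%, and 9 above 60%. For all 17133 clusters the medians were 4.68% in iPSCs, 9.30% in precursors, 8.78% in iPSC-DA and 5.68% in mdDA neurons.

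**Figure D1:**
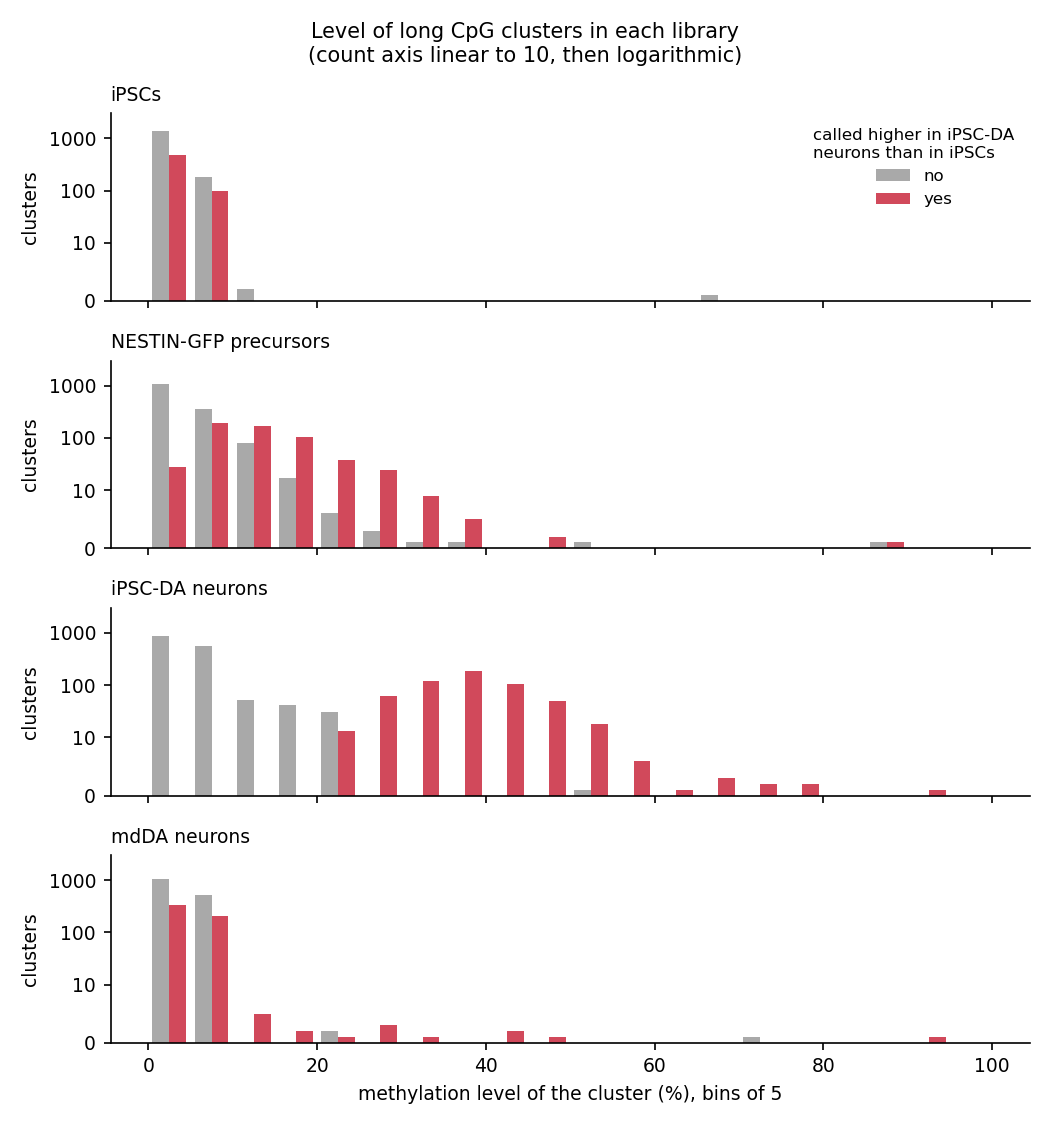
Number of long CpG clusters by methylation level (%, bins of 5) in the 4 libraries, split by whether the cluster was called higher in iPSC-DA neurons than in iPSCs. The count axis is linear up to 10 and logarithmic above. The iPSC-DA library has a broad second group with a median of 37.4%, made of the called clusters, while in mdDA neurons the same clusters sit with the others near 4.74%.

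Part of the low levels came from the first base of the reads. MspI cuts at CCGG, so an RRBS read starts at the inner cytosine of that site, and in the promoters that could be placed 17.3% of the 28339 positions with a cut site in the window lay at a read start. In members without a gain, the mean level at the first base of the read was 18.2% in iPSCs, 8.10% in precursors, 21.1% in iPSC-DA and 20.8% in mdDA neurons. At bases 21 to 30 of the read it was 0.787% in iPSCs, 4.03% in precursors, 2.30% in iPSC-DA and 1.39% in mdDA neurons. In the precursors the first base thus stood out less and the later bases were higher than in the other libraries. When read starts were left out, the median level in the promoter windows of members without a gain fell from 3.49% to 0.705% in iPSCs, from 4.32% to 1.20% in iPSC-DA and from 4.33% to 1.17% in mdDA neurons. In precursors it fell from 2.26% to 1.67%, so that this library went from the lowest of the 4 medians to the highest. In iPSCs, iPSC-DA and mdDA neurons a level of about 4% therefore went with about 1% beyond the first base, which does not hold for the precursors. Why the first base was read as methylated more often was not tested.

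**Figure D2:**
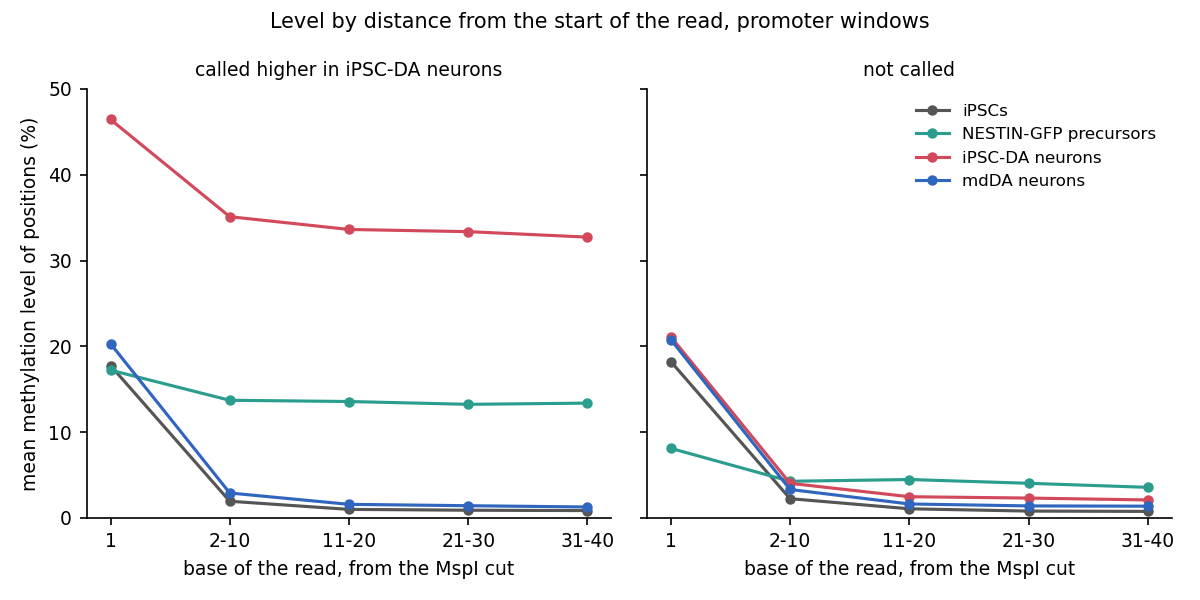
Mean methylation level (%) of positions by base of the read, counted from the MspI cut, in promoter windows of long clusters that were (left) and were not (right) called higher in iPSC-DA neurons than in iPSCs. Lines are the 4 libraries. The first base stands above all later ones in each library, and from base 11 on the called clusters stay near 33% in iPSC-DA neurons and near 1% in iPSCs and mdDA neurons.

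A total of 569 of 2135 long clusters (26.7%) rose from iPSCs to iPSC-DA neurons, where a call needed a difference of at least 20 percentage points and an adjusted p under 0.05 in Fisher's exact test with Benjamini-Hochberg adjustment over all clusters. Of all clusters, 33.3% were called higher in this comparison, so the share among long clusters was somewhat below that background. None of the long clusters fell by this rule (0.0876% of all clusters did). The size of the difference and not the p set the calls, since 1481 long clusters had an adjusted p under 0.05. Among the members just inside the length limit, 36.1% of the 83 with 60 positions were called, against 22.7% of the 66 clusters with 59.

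The 569 clusters, called gained clusters here, rose to similar levels. Their iPSC-DA level had a median of 37.4%, quartiles of 32.9% and 41.9%, and a range of 23.6% to 92.2%, and the median difference from iPSCs was 33.4 points. These values describe the choice of the clusters. The other 2 libraries took no part in that choice: gained clusters had a median of 4.74% in mdDA neurons against 4.61% for the other members, and a median of 11.9% in precursors against 3.32%. The medians in mdDA neurons thus lay close together, although 16 gained clusters and 3 others stood at 10% or more there, while most of them were somewhat higher than the others in precursors, with quartiles of 8.39% and 17.2% against 1.79% and 5.71%. Gained and other members had nearly the same size, with medians of 77 and 78 positions and 13.0 and 12.9 positions per 100 bp.

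Between iPSC-DA and mdDA neurons, the comparison at the heart of the study, 550 long clusters (25.8%) were higher in iPSC-DA neurons, against 27.8% of all clusters. One was lower (0.198% of all clusters). The median difference of the 550 was 32.6 points. This comparison shares the iPSC-DA library with the one above, so the 2 counts do not stand as separate evidence.

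From iPSCs to mdDA neurons 8 long clusters rose (0.375%), against 5.88% of all clusters, and none fell (0.344% of all clusters fell). From iPSCs to precursors 54 of 2134 rose (2.53%), against 20.9% of all clusters, and none fell (0.0123% of all clusters fell). This share rested on the size a call needs, since 255 (11.9%) rose by at least 10 points and 10 (0.469%) by at least 30 points. Over all clusters these shares were 36.1% and 13.6%. In both comparisons the share fell with every step in length. It went from 11.5% of clusters of 10 to 19 positions to 2.21% at 20 to 39 and 0.826% at 40 to 59 positions in mdDA neurons, and from 37.0% to 14.1% and 5.43% in precursors. From iPSCs to iPSC-DA neurons the shares of these classes were 39.6%, 30.2% and 26.0%, so the share among long clusters differed little from that of the class before it. The number of calls per cluster rises with length, and the part of depth in these shares was not tested beyond the thinned libraries of the alternatives.

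**Figure D3:**
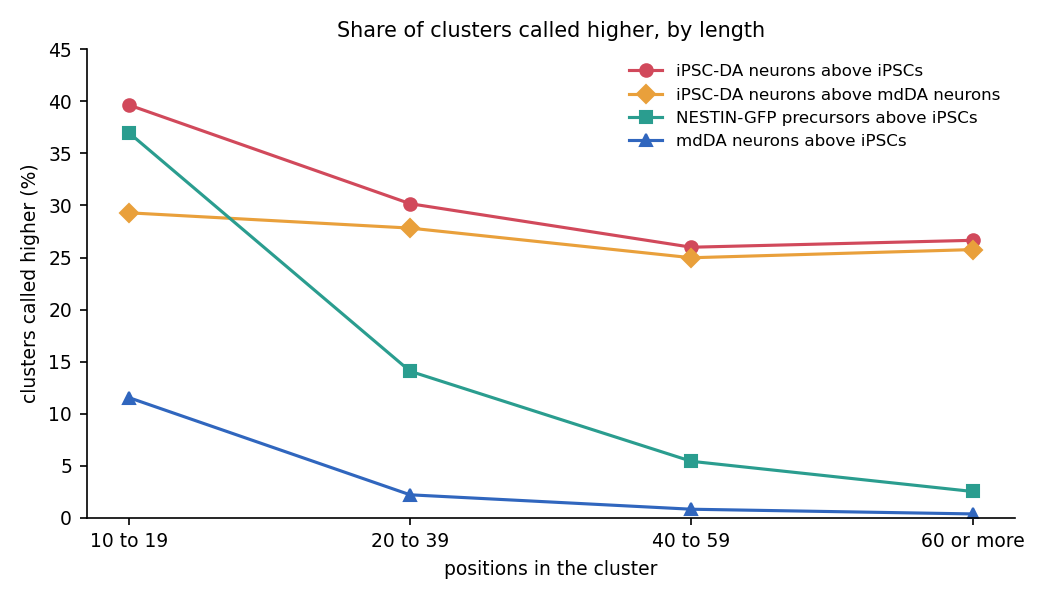
Share of clusters (%) called higher by at least 20 points, by number of positions in the cluster, for 4 pairs of libraries. Among clusters of 60 or more positions 26.7% were called in iPSC-DA neurons, 2.53% in precursors and 0.375% in mdDA neurons, each against iPSCs.

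Few gained clusters had reached the call in precursors. Among long clusters 45 of 569 gained clusters (7.91%) were called in both, against 17.1% of the gained clusters of 40 to 59 positions, 493 of 1591 of those of 20 to 39 and 61.6% of those of 10 to 19. The rise in precursors was small but general: the median difference from iPSCs was 8.13 points in gained clusters and −0.10 points in the others. The lower first-base level of the precursor library enters these differences. Over named promoter windows of gained and other members together, the median difference was −0.06 points, and it was 2.13 points without read starts. Without read starts the median window level of the others was also higher in precursors (1.67%) than in iPSCs (0.705%). That of gained clusters was 9.49% and 0.849%. Over all clusters, 1067 (9.89% of those not gained) were called in precursors and not in iPSC-DA neurons. Among long clusters 9 (0.575%) were so called. The 2 most deeply read of them, chr17:39985072-39985734 and chr17:39981421-39983291, were clusters of very high depth, described below. At chr5:143667685-143668516 the level was 5.50% in iPSCs, 32.5% in precursors (28.8% to 36.5%, 575 calls), 5.61% in iPSC-DA and 5.79% in mdDA neurons, so only the precursor library was high. At chr5:141305856-141306441 it was 2.65%, 22.6% (19.1% to 26.6%, 477 calls), 3.22% and 3.87% in the same order. A further 4 of the 9 also stood higher in iPSC-DA neurons than in iPSCs, short of 20 points. They were chr9:108997647-108998314, with 28.8% in precursors and 22.6% in iPSC-DA neurons, chr11:75492709-75493209, with 27.1% and 19.5%, chr2:56966697-56967450, with 23.4% and 16.7%, and chr8:126177621-126177954, with 27.2% and 13.2%. In iPSCs these 4 lay between 3.55% and 4.09%, and in mdDA neurons between 4.02% and 5.92%. The last of the 9, at Tmem267, was high in all libraries and is described below.

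The intermediate level of gained clusters came from intermediate positions and not from a mix of full and empty ones. In iPSC-DA neurons 83.0% of their 49161 positions lay between 20% and 80%, 13.6% lay under 20% and 3.39% at 80% or more. In the other members 88.9% of positions lay under 20%. The positions of 1 gained cluster still varied more than counting error gives. The median SD within a cluster was 15.4 points, against 6.72 points expected from binomial counting. In the other members it was 9.41 against 3.04 points, so such an excess was not particular to gained clusters. In the median gained cluster, 38 positions in a row were at or over 20%, of 77 in all, and the longest run under 20% held 4 positions. In mdDA neurons the longest run under 20% in the same clusters held 26 positions, as it did in the other members. Read starts were counted in these runs, and in promoter windows of gained clusters their mean level in mdDA neurons was 20.3%.

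The rise in gained clusters had no common slope along the cluster. Edge and centre were compared over equal numbers of positions, the first 10 and last 10 against the middle 20. In gained clusters the median level in iPSC-DA neurons was 38.5% at the edge and 37.1% in the centre. The rise from iPSCs was 33.3 points at the edge and 33.2 points in the centre, and the median difference of the rises was 0.04 points (quartiles −5.69 and 6.31). It was larger by at least 10 points at the edge in 90 gained clusters and in the centre in 75. Over single autosomes the median difference ran from −6.98 to 3.54 points, with 8 of 19 above 0. Near 0 was thus the middle of slopes in both directions. Over all 2135 members the rise was larger at the edge by a median of 0.52 points, and the median was above 0 on 18 of 19 autosomes. In members without a gain it was 0.55 points, with a larger rise at the edge in 61.6% of them.

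Levels were higher at the edge than in the centre in all 4 libraries, by most in precursors with at least 5 calls per position. With at least 10 calls the median of edge minus centre was nearly equal in precursors (1.48 points) and iPSC-DA neurons (1.47 points). In precursors, over the 1969 long clusters with at least 5 positions of 5 or more calls in both, the medians were 7.14% at the edge and 2.94% in the centre, and the edge was higher by at least 10 points in 457 clusters and the centre in 131. The median of edge minus centre was above 0 on all 19 autosomes (1.62 to 4.58 points), and it was 3.55 points in gained clusters and 2.15 points in the others. Over all positions, also those under 5 calls, the median depth was 10 calls per edge position and 12 per centre position. The part of depth in the edge excess was not tested beyond the other minimum calls of the alternatives. In iPSCs the edge had 4.62% and the centre 3.52%, in iPSC-DA neurons 7.35% and 5.48%, and in mdDA neurons 5.50% and 4.30%. In iPSC-DA neurons the edge was higher by at least 10 points in 154 clusters and the centre in 77, and the median of edge minus centre was above 0 on all 19 autosomes. Taken as the rise from iPSCs, as above, the edge excess of the precursors was 2.19 points in gained clusters, above 0 on 13 of 19 autosomes, and 1.87 points in the others, above 0 on all 19. Read starts took 20.2% of window positions in the outermost bin of members without a gain and 16.4% in the innermost. With all window positions the mean level in these bins was 8.45% and 4.37% in precursors and 4.84% and 3.99% in iPSCs. It was 7.17% and 5.49% in iPSC-DA and 6.07% and 4.81% in mdDA neurons. Without read starts it was 7.67% and 3.82% in precursors and 1.45% and 1.17% in iPSCs. In iPSC-DA neurons it was then 3.40% and 2.47%, and in mdDA neurons 2.37% and 1.79%. The edge excess in these bins was thus smaller without read starts in each library.

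**Figure D4:**
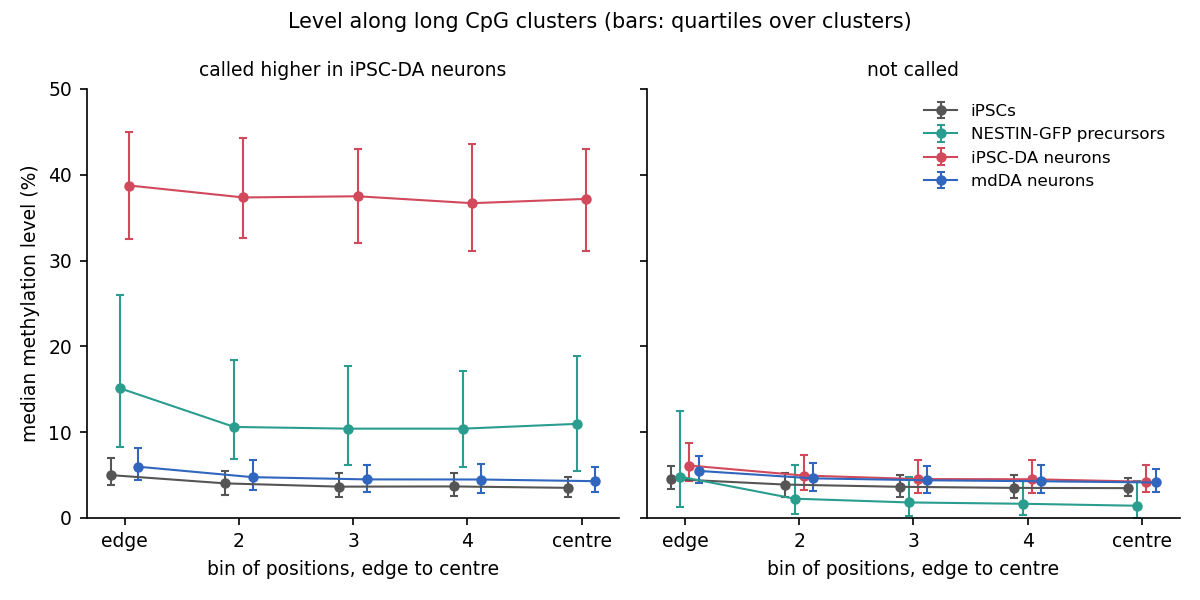
Median methylation level (%) of long clusters in 5 bins of positions from the edge to the centre, with bars for the quartiles over clusters, for clusters called higher in iPSC-DA neurons than in iPSCs (left) and the others (right). In called clusters the iPSC-DA median is 38.7% in the edge bin and 37.2% in the centre bin, while precursors go from 15.1% to 11.0%.

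Single clusters had steep slopes in both directions. At Cpeb1, which encodes a regulator of mRNA translation (chr7:88599110-88600193), the iPSC-DA level was 58.9% at the edge and 24.8% in the centre, and the precursor level was 28.4% and 3.26%. At Syt9, a synaptotagmin of vesicle release (chr7:114514089-114514685), the iPSC-DA level was 54.9% and 23.5%, but the precursor level was 17.8% and 47.9%, so the 2 libraries had opposite slopes as read. In precursors the whole cluster had 1132 calls at Cpeb1 and 1267 at Syt9. Edge and centre hold only part of these calls, so the precursor slopes are uncertain. At Klhl23 (chr2:69660740-69661407) the order was turned, with 19.2% at the edge and 51.8% in the centre in iPSC-DA neurons. The largest slopes of each kind were found at chr2:157740152-157740790, with 55.9% at the edge and 17.3% in the centre, and at chr11:85646351-85646808, with 25.3% and 59.2%. These clusters were picked for their slope, which is therefore no finding.

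The 5 longest clusters showed different behaviour. The longest of all lay on chromosome 17 and had very high depth (below). The next, at Zfp777, a zinc finger gene (chr6:47997573-47998982, 260 positions), had 3.42% in iPSCs, 4.09% in precursors, 10.6% in iPSC-DA and 4.07% in mdDA neurons, with 21.1% at the edge and 4.90% in the centre in iPSC-DA neurons. Dnmt3a, a de novo DNA methyltransferase (chr12:3806505-3808236, 257 positions), had 3.38%, 5.40%, 12.5% (12.0% to 12.9%) and 4.22%, with 28.6% at the edge and 6.45% in the centre in iPSC-DA neurons. Both missed the call, and both were higher at the edges than in the centre. Epb41l4b, a cytoskeletal linker (chr4:57155549-57156706, 229 positions), was called, with 3.89%, 5.93%, 31.8% (31.2% to 32.4%) and 4.36%, and it was level from edge (35.8%) to centre (33.4%). The fifth, chr17:66132004-66133248 with 221 positions, stayed between 3.80% and 4.74% in all 4 libraries.

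Very few long clusters were methylated in mdDA neurons. The cluster chr5:93370789-93371785 had 8.70% in iPSCs, 87.8% in precursors, 92.2% in iPSC-DA (91.4% to 92.9%) and 94.5% in mdDA neurons (93.8% to 95.1%). It was high in all but the iPSCs and gave the largest rise in both neuron libraries. At chr11:11926188-11926472 the mdDA level (42.2%) exceeded the iPSC-DA level (36.9%), and the precursor level was 6.89%. The other 6 of the 8 clusters that rose in mdDA neurons were all higher in iPSC-DA neurons than in mdDA neurons. They included chr17:50432161-50432946, with 47.0% in mdDA and 65.3% in iPSC-DA neurons, and chr7:17471211-17471631, with 42.4% and 78.2%. All 8 were among the 569 gained clusters.

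Of the 4 next largest rises to iPSC-DA neurons, chr7:17471211-17471631, given above, was also high in precursors (46.8%). The other 3 were lower in mdDA neurons. At chr5:144014923-144015642 the levels were 3.61% in iPSCs, 20.2% in precursors, 77.5% in iPSC-DA (76.8% to 78.2%) and 7.84% in mdDA neurons. At chr15:100883725-100884817 they were 4.59%, 29.8%, 73.7% and 12.0%, and at chr7:112910665-112911288 they were 4.44%, 30.7%, 70.7% and 15.6%. In each, the mdDA level was the second lowest and precursors lay between the mdDA and the iPSC-DA neurons. No promoter of the table was placed on these clusters.

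One long cluster was methylated in iPSCs. At Tmem267 (chr13:120276808-120277345) the level was 66.3% in iPSCs (65.6% to 67.1%), 88.9% in precursors, 52.0% in iPSC-DA (51.1% to 53.0%) and 72.7% in mdDA neurons (71.9% to 73.5%). It had the largest fall from iPSCs among the members, by 14.3 points, and was the single member lower in iPSC-DA than in mdDA neurons by the rule. The next largest falls were small: Igfbp7, a secreted binding protein of insulin-like growth factors (chr5:77836686-77837264), went from 5.24% in iPSCs to 3.60% in iPSC-DA and 3.31% in mdDA neurons. The clusters chr17:39981421-39983291 (333 positions) and chr17:39985072-39985734 (106 positions) followed in iPSC level, with 13.9% and 14.6%. They had 4118 and 3340 calls per position in iPSCs, against a median of 90 over members. Their levels were 39.4% and 53.1% in precursors and 19.7% and 17.8% in iPSC-DA neurons, and the part of this depth in the levels was not tested.

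Gained clusters were found on every autosome, in shares from 8 of 55 members on chromosome 16 to 48 of 114 (42.1%) on chromosome 7. Over all clusters the share called was also lowest on chromosome 16, at 22.4%. It was 37.1% on chromosome 7 and highest on chromosome 12, at 40.2%. Chromosome 10, on which the iPSC-DA library had more calls than elsewhere, had a usual share of 23.9%, against 33.5% over all its clusters. Its gained clusters had a median iPSC-DA level of 45.1%, against 33.6% to 43.4% on the others. The part of depth in this level was not tested. Long clusters within 1000 bp of each other behaved alike: of 59 neighbouring pairs 100 to 1000 bp apart, 19 were both gained, 39 both not, and 1 was split. At 1000 to 5000 bp 87.5% of 8 pairs were alike, and at 5000 to 20000 bp 73.1% of 26. At 20000 to 100000 bp, 72.5% of 258 pairs were alike, and at 100000 to 1000000 bp, 64.1% of 1149 pairs. Since most members were not gained, most pairs are alike at any distance, so the farthest class serves as the background for the nearer ones.

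Gene names came from placing RefSeq promoter sequences on the clusters by CpG spacing, which uses no methylation value and no coordinate. A name was given to 817 of the 2135 long clusters (38.3%), with a median of 35 matched positions, and for 817 of 817 the promoter's own chromosome was that of the cluster, which the match had not used. Of these 817, 192 (23.5%) were gained clusters, against 28.6% of the 1318 without a name. The gene groups below rest on few members each, so their counts are set beside 23.5% and carry no test.

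Genes of basic cell functions stayed low. Of 10 long clusters at symbols of ribosomal, translation, splicing and respiratory chain genes, none was called, and the median difference from iPSCs to iPSC-DA neurons was 0.84 points. Hnrnpa0, an RNA-binding protein of the splicing machinery, had 4.08% in iPSCs, 2.32% in precursors, 3.94% in iPSC-DA and 4.93% in mdDA neurons. Srsf4 had 3.29%, 1.63%, 4.18% and 4.0%, and Hnrnpr had 5.48%, 2.31%, 5.63% and 6.50%. The clusters at Eif4enif1, Eif4ebp2 and Srsf10 lay at 4.99%, 5.10% and 6.07% in iPSC-DA neurons, against 4.59%, 4.01% and 4.35% in iPSCs. Of these, Eif4enif1 and Eif4ebp2 encode proteins that bind the initiation factor eIF4E. The one with a larger difference was Rps6ka1, with 20.8% in iPSC-DA neurons against 4.08% in iPSCs. Rps6ka1 is a signalling kinase and no ribosomal protein, and only its symbol placed it in the list.

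Among midbrain dopamine genes 1 of the 29 had a named long cluster. Nr4a2 (chr2:56975925-56976746, 92 positions) had 4.49% in iPSCs, 2.75% in precursors, 4.64% in iPSC-DA and 5.32% in mdDA neurons, with an adjusted p of 0.747 between iPSCs and iPSC-DA neurons in Fisher's exact test with Benjamini-Hochberg adjustment. Without read starts its promoter window had 2.07%, 1.57%, 1.84% and 1.49% in that order, and these values hold for the promoter cluster alone. Another long cluster, chr2:56966697-56967450, named above for its call in precursors, lies at lower coordinates, the direction in which this minus-strand gene runs. It had 3.55% in iPSCs, 23.4% in precursors, 16.7% in iPSC-DA and 5.92% in mdDA neurons, and its place in or outside Nr4a2 was not determined, since no annotation of the files' build was used here. No Hox gene and no clustered protocadherin had a named long cluster.

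Developmental genes were split. Of 10 long clusters at developmental transcription factor families, 5 were gained. Sox30 had 44.7% in iPSC-DA neurons against 4.82% in iPSCs, 17.7% in precursors and 9.30% in mdDA neurons. Sox12, a SOXC factor of developing neurons, had 41.2% against 2.90%, 9.38% and 4.36%. Irx4, an Iroquois homeobox gene of the heart ventricle, had 36.2% against 5.19%, 4.84% and 5.05%, so it stood apart in iPSC-DA neurons alone. Pou4f1 had 34.4% against 4.21%, 14.7% and 4.86%, and Nkx6-1, a homeobox gene of the ventral neural tube and the pancreas, had 34.3% against 6.03%, 5.77% and 7.67%. The 4 at Foxk2, Foxj3, Prdm4 and Prdm15 lay between 3.46% and 4.26% in iPSC-DA neurons, and Klf3 lay between the groups, with 17.1% against 3.80% in iPSCs.

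All 4 long clusters at secreted morphogens were gained. Fgf18 had 38.2% in iPSC-DA neurons, 3.34% in iPSCs, 7.05% in precursors and 3.67% in mdDA neurons. Wnt11 had 34.6%, 3.73%, 7.13% and 3.99%, Wnt4 had 29.97%, 4.44%, 11.9% and 4.49%, and Wnt3a, a ligand of the canonical WNT pathway, had 28.3%, 2.99%, 18.1% and 4.21%. None of the 4 was called in precursors or in mdDA neurons, where 10 and 0 of all 817 named long clusters were called, so this sets them apart from no other group.

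A further 2 groups were drawn up after the gained names had been seen, so their counts support nothing by themselves. Of 15 long clusters at ion channels and neurotransmitter receptors, 13 were gained, with a median difference of 29.7 points. Kcnmb4, an accessory subunit of BK potassium channels, had 48.1% in iPSC-DA and 5.57% in mdDA neurons. Cacna1c, an L-type calcium channel, had 44.4% and 3.62%, and its paralogue Cacna1d, which carries pacemaking current in dopaminergic neurons, had 32.6% and 2.70%. Kcng3 had 43.0% and 3.70%, Kcnc1 had 42.1% and 2.68%, and Grik3, a kainate receptor, had 39.9% and 3.67%. Htr7, a serotonin receptor, had 39.5% and 5.60%. Htr1d (18.6% in iPSC-DA neurons) and Cacna2d1 (5.90%) were not called.

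Of 12 long clusters at axon guidance and cell adhesion genes, 10 were gained, with a median difference of 32.3 points. Adgrg6 had the largest, with 52.9% in iPSC-DA neurons against 3.87% in iPSCs, with 21.9% in precursors and 4.76% in mdDA neurons. Amigo2 had 49.2% in iPSC-DA and 5.39% in mdDA neurons, Unc5a, a netrin receptor, had 33.7% and 4.02%, and Epha8, an ephrin receptor, had 26.0% and 7.95%. Adgrl3, a latrophilin, had 41.4% and 3.88%, and Sdk2, an adhesion protein of synapses, had 39.3% and 3.69%. Clstn1 and its paralogue Clstn2 differed, with 3.59% and 37.8% in iPSC-DA neurons against 3.08% and 3.95% in iPSCs. Plxnd1, a semaphorin receptor, was at 4.43%.

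**Figure D5:**
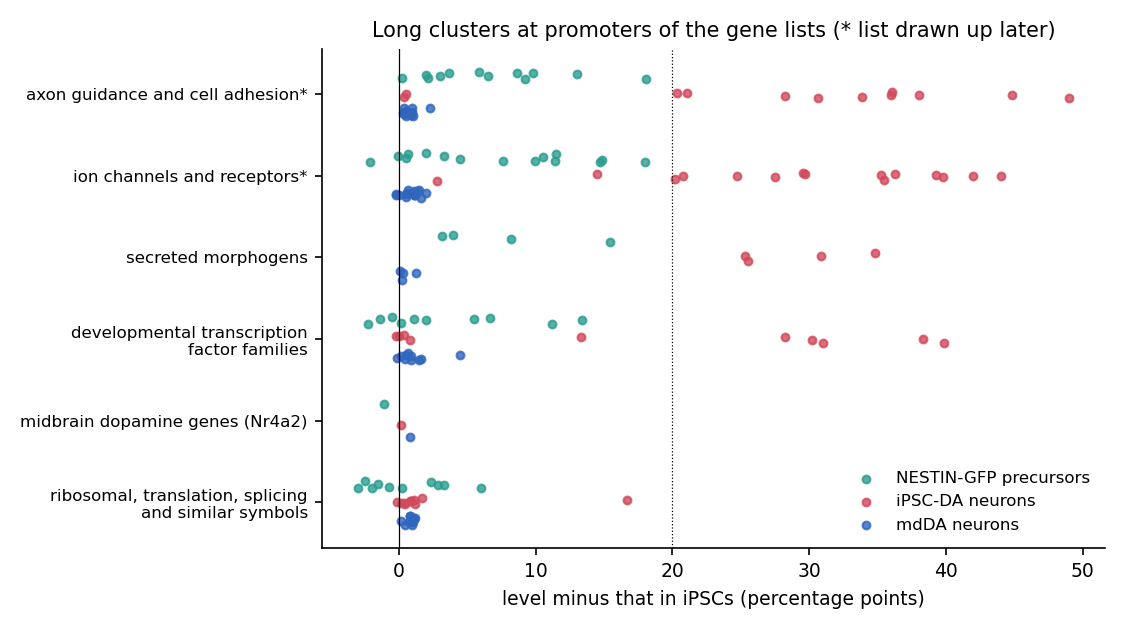
Level minus the level in iPSCs (percentage points) of each long cluster at a promoter of 6 gene groups, for the precursors and both neuron libraries. The dotted line marks 20 points, and the 2 groups with an asterisk were drawn up after the gained names were known. No cluster of these groups passes the line in mdDA neurons or precursors, while 4 of 4 morphogen and 5 of 10 transcription factor clusters do in iPSC-DA neurons. Of all 817 named long clusters, 192 were called in iPSC-DA neurons, 10 in precursors and 0 in mdDA neurons.

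The promoters of gained and other named clusters were alike in base composition. The printed window of 300 bases held a median of 41 CpGs in gained and 40 in other clusters, against 7 over all 32851 promoters of the table, and the median GC content of gained promoters was 76.0% against 52.7% over the table. Short motifs, searched on both strands, differed more. CCGGAA, the core of ETS factor sites, stood in 13.5% of the 192 gained and 29.3% of the 625 other promoters, against 14.9% of all. It contains CCGG, the MspI site, so it also bears on which positions were read. ATGGCGG, the core of YY1 sites, stood in 3.65% of gained, 9.44% of other and 4.05% of all promoters. GCATGCG, part of NRF1 sites, stood in 2.60%, 6.08% and 3.58%. CCAAT stood in 17.7%, 25.6% and 37.4%, and CACGTG, an E-box, in 6.25%, 10.1% and 7.15%.

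The last 2 motifs did not separate the groups. GGGCGG, a GC box, stood in 91.1% of gained and 91.7% of other promoters, against 35.7% of all, and it can overlap ATGGCGG. The letters TATAAA stood in 1.56%, 1.60% and 13.6%. Read the other way, 12.4% of the 209 promoters with CCGGAA lay in gained clusters against 27.3% of the 608 without it, and 10.6% of the 66 with ATGGCGG against 24.6% of the 751 without it. In mdDA neurons the median levels of these groups were 4.48% and 4.55% for CCGGAA and 4.53% and 4.54% for ATGGCGG. A match of letters is not a bound site, and in the printed promoters ATGGCGG occurs at Srsf4 alone.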

How the data were processed

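RRBS was performed by the authors on MspI-digested DNA of 4 samples, 1 per condition, with single-end reads. The submitters' processing notes name FastQC, Trim Galore 0.3.5 and Bismark 0.10.1. The genome build is not given in the sources used here, and NCBIM37 was inferred from the positions. The deposited files give, per cytosine position, a percent methylation and the counts of methylated and unmethylated calls, and no pooling by the authors is stated. Their own analysis took CpGs with 5 or more reads, but the deposited files also hold positions with fewer. Only the deposited counts were used. Clusters were built as described above with Python 3.11.15, pandas 2.3.3 and numba 0.67.0, and a cluster's level pools the calls of its positions. Two-sided Fisher's exact tests were adjusted by Benjamini-Hochberg over all 17133 clusters (16262 with NESTIN-GFP calls, which needed at least 5 positions with 5 calls). The test and the promoter placement were tested on simulated data. Promoters were placed where at least 20 positions of a cluster fell in the window and each was a CpG cytosine. Named clusters are the 5 with the largest rise in each neuron library, the highest iPSC level, the largest slopes in each direction, the greatest length and the largest fall, and up to 6 genes per list, those with the most matched positions. Printed promoters, the clusters called in NESTIN-GFP precursors alone, genes named beyond these and the last 2 gene groups were chosen after their values were seen. The short motifs were not part of the plan of the results. The members and lists were chosen with earlier results of these data known.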

Additional observations from a re-analysis of the deposited data

How the results depend on the processing

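Each condition had 1 library, so counting error is the only error and no result was checked in a second sample. No paired analysis was possible because the groups share a single replicate number and each holds 1 library. The settings varied were the minimum calls per position (10 or 1), the gap that ends a run (200 or 50 bp), the length of a long cluster (40 or 80 positions), the weighting, the deepest positions, the depth (thinned libraries), chromosome 10, the size of a call (10 or 30 points) and the definition of edge and centre. Of 188 values, 179 stayed within 1.5 times the share or, for medians, within the counting interval of a single cluster of median level and depth. That interval is a loose limit for a median over many clusters. The share called from iPSCs to mdDA neurons moved from 0.375% to 0.603% at 40 or more positions and to 0.187% at 30 points. The share called from iPSCs to NESTIN-GFP precursors moved from 2.53% to 3.99% at 40 or more positions, 1.29% at 80 or more, 11.9% at 10 points and 0.469% at 30 points. With the unweighted mean of positions, the median level moved to 6.18% (NESTIN-GFP precursors) and 5.93% (iPSC-DA neurons), and the median difference of the precursors from iPSCs from 1.19 to 2.75 points. Within the single-cluster interval, small differences still moved by over 1.5 times. The same median was 0.144 points with a gap of 50 bp and 0.687 points at 10 calls. The precursors' edge minus centre went from 2.49 points to 1.48 at 10 calls and 5.09 at 1 call. In iPSC-DA neurons edge minus centre was 1.47 points at 10 calls and 1.82 at 1 call. With edge and centre taken as shares of the length, the edge excess of the rise to iPSC-DA neurons went from 0.52 to 0.26 points. Leaving out read starts, an alternative chosen after seeing the data, changed the share of the 817 promoter windows that rose by 20 points in iPSC-DA neurons from 22.3% to 21.8%, against mdDA neurons from 21.7% to 21.4%, and in NESTIN-GFP precursors from 3.61% to 5.02%. The cause of these shifts was not tested.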
